A study of Danio rerio with 6 samples.

Results

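Neurotransmitter receptor genes were followed in whole zebrafish larvae after knockdown named for GJB2, a connexin gene known for its role in hearing. The members were the symbols of the gene table that name ionotropic or metabotropic glutamate receptors (gria, grin, grik, grm), GABA receptors (gabr), glycine receptors (glra, glrb), nicotinic acetylcholine receptors (chrn) and serotonin receptors (htr), after a trailing row number was removed from each name and the read counts of a symbol were added. This gave 112 genes of the 37685 in the table, made up of 39 for glutamate, 22 for GABA, 7 for glycine, 23 for acetylcholine and 21 for serotonin. A filter on low counts left 101 of them in the test, and the other 11 held at most 54 counts over the 6 libraries together. No member was at 0 in all libraries.

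The controls were 3 libraries of wild-type AB larvae, and the other group was 3 libraries of AB larvae that had been given the GJB2 morpholino as 1-cell embryos. All were taken at 72 hours post fertilization, from whole animals. A morpholino is a synthetic antisense oligonucleotide that blocks the translation or splicing of an RNA. No library of larvae given a control oligonucleotide was analysed here, and neither pooling of larvae nor separate clutches are given by the labels, so a p-value here covers only the spread among libraries, part of which may be technical. The oligonucleotide is shown because it is all that separates the groups by label; the capitals mark the complement of a start codon.
GJB2-MO: taaagtgctccccaactCATcctgt
The labels do not name the zebrafish gene it binds. The connexin gene gjb8 was taken as the nearest candidate, without a check of its sequence. Its 2 rows together held 7, 8 and 11 counts in the controls against 114, 14 and 16 in the morpholino libraries (log2 fold change 2.29 ± 1.03 (SE), adjusted p = 0.288). Since a block of translation need not lower an RNA, these counts do not check the labels.

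Receptors for fast transmission are assembled from several subunits that each have a gene, and the choice of subunits sets the kinetics, the ion selectivity and the location of the receptor. Glutamate acts through AMPA, NMDA and kainate channels to excite, GABA and glycine open chloride channels that mostly inhibit in mature circuits, and acetylcholine drives skeletal muscle through the nicotinic receptor of the neuromuscular junction. The metabotropic receptors of glutamate and most serotonin receptors signal through G proteins. Zebrafish keep a duplicate of many of these genes, marked a and b. In whole larvae a higher or lower level cannot be told apart from more or fewer cells that express the gene.

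The libraries held between 14582030 and 19743658 counts, of which the members took 0.167%, 0.166% and 0.167% among controls, against 0.184%, 0.182% and 0.187% among morpholino libraries. Markers of tissues that carry these receptors were read from the same libraries. All 26 neuron marker genes matched in the table had counts, as did all 25 muscle, 23 retina and 13 cerebellum markers. A count above 0 in any library was enough, so this does not measure how much of each tissue was present. Strand is not given as used in counting. The spans of 32 members overlap another gene, for 25 of them a gene on the other strand. Whether reads of such pairs were told apart is not known.

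Levels between families were compared as FPKM, which is scaled by the length of each row, summed over the genes of a family. NMDA receptor genes had the highest sum, at 113, 114 and 109 FPKM in the controls, ahead of the muscle nicotinic genes at 69.2, 73.7 and 75.1 and the GABA-A genes at 62.7, 57.7 and 55.1. The AMPA genes followed at 43.7, 39.3 and 41.2 FPKM. The lowest family was the serotonin channel gene htr3a, the only one among the members, at 0.926, 0.855 and 0.946 FPKM. Of the 112 genes, 8 averaged at least 10 FPKM over the 6 libraries and 37 averaged under 1. These 8 were grin1a, grin1b, chrna1, chrnd, gria2b, gabrd, gria3a and chrne, in that order. The ranges of grin1a and grin1b overlapped across the 6 libraries, and so did those of chrnd and gria2b, and of gabrd, gria3a and chrne in turn; chrna1 stood apart from its neighbours on both sides.

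**Figure D1:**
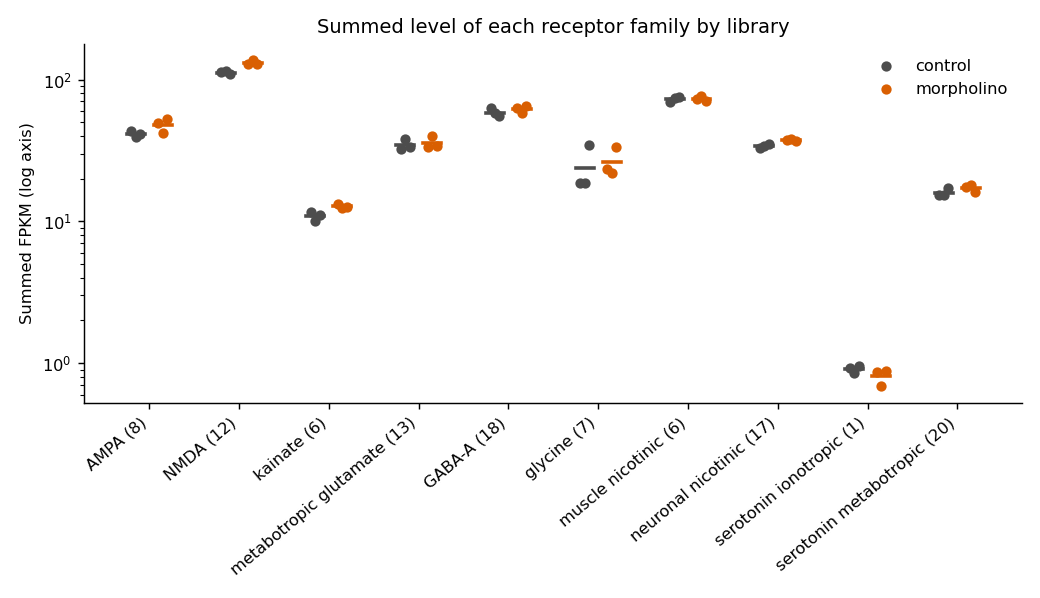
Summed FPKM of the receptor families described here on a log axis, with 1 point per library, a line at each group mean and the number of genes in brackets. The NMDA, kainate and neuronal nicotinic families have all 3 morpholino libraries above all 3 controls, and the muscle nicotinic groups overlap.

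Across the whole set, 2 receptor genes rose in the morpholino larvae, grin1b and grin2cb, and none fell in edgeR. That is 1.98% of the 101 tested, beside 2.88% of all 22247 tested genes called higher and 3.31% called lower, so the number of calls was near or below that of the table. At an unadjusted p under 0.05 there were 13 members higher and 1 lower (12.9% and 0.990%), beside 10.5% and 11.3% of all genes; DESeq2 also called none lower, and called grin1b alone as higher. The levels in CPM (counts scaled to the total of each library, with TMM factors) did not overlap between the groups for 20 higher members and 1 lower member, 19.8% and 0.990% of those tested, beside 13.7% and 14.1% of all genes. The median log2 fold change of the tested members was 0.11, against 0.01 for all genes, and 68 of the 101 (67.3%) were above 0, against 51.4% of all genes. By point estimate alone, 95 of the 101 lay within 1.5-fold. These include glrbb and gabrp, whose standard errors were wide (0.29 ± 1.59 and -0.02 ± 1.12 on the log2 scale). The share of all genes within this limit was not computed, so the count is not read as a trait of the members. Log2 fold changes of all genes had an interquartile range of -0.16 to 0.19, beside -0.02 to 0.28 for the tested members.

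**Figure D2:**
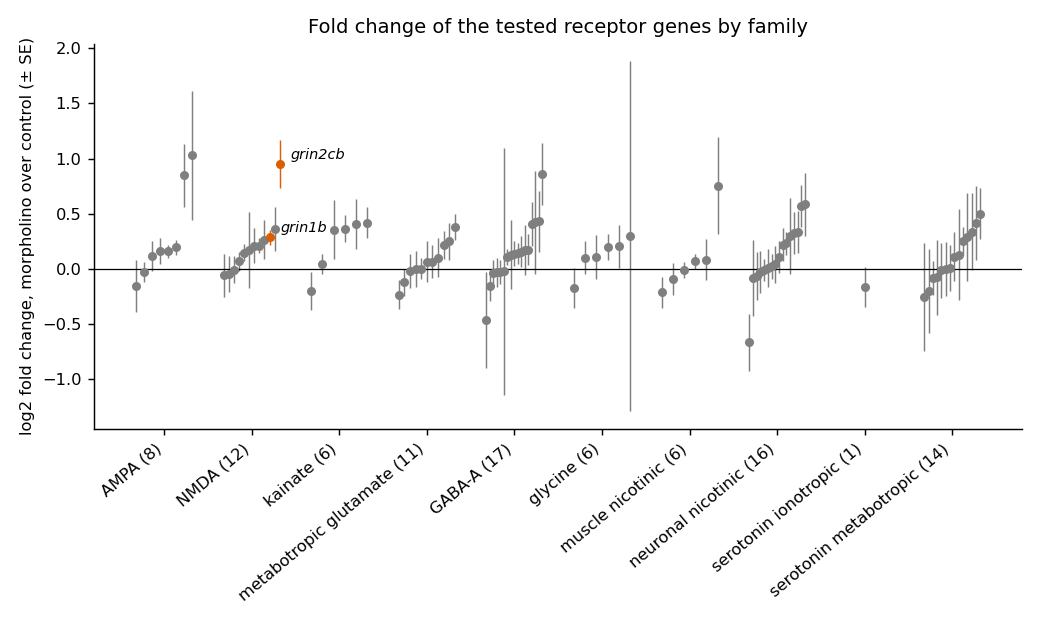
log2 fold change (morpholino over control) of the tested genes of the receptor families described here, with standard errors, grouped by family, with the number tested in brackets. The 2 genes that passed the test, grin2cb and grin1b, are in orange; the 2 widest bars belong to gabrp and glrbb, whose controls differed most among themselves.

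The sum over all members was 1667 ± 11.3 CPM in the controls and 1850 ± 29.0 CPM in the morpholino libraries (SD, n = 3 per group), a difference of 183 CPM. grin1a and grin1b made up 44.4% of this difference, with a summed level of 418 ± 13.2 against 499 ± 32.7 CPM. The other 37 glutamate genes made up 33.2%, and the 29 GABA and glycine genes 16.1%. No test was made on these sums. The summed level of the 26 neuron markers ranged from 2290 to 2401 CPM in the controls and from 2353 to 2535 CPM in the morpholino libraries; its part in the difference was not tested.

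Among NMDA receptor genes, both calls were made. The gene grin1b encodes a copy of the obligatory subunit, without which no NMDA channel forms (chromosome 5, 29597950 to 29643829, GRCz11, minus strand). Its level was 259, 254 and 244 CPM in the controls against 294, 329 and 300 CPM in the morpholino libraries. Every morpholino library lay above every control. The rise was 0.28 ± 0.07 on the log2 scale (95% interval 0.14 to 0.43, 1.22-fold, adjusted p = 0.0306). Leaving out any of the 6 libraries ended this call (adjusted p between 0.0513 and 0.127), while the log2 fold change kept between 0.23 and 0.32. The call was also lost with the replicate number as a block (adjusted p = 0.0503) and without robust estimation (0.0522).

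Its duplicate grin1a (chromosome 21, 11468601 to 11501324, plus strand) stood at 169, 169 and 159 CPM against 184, 208 and 183 CPM. These groups did not overlap either, but the difference of 0.21 ± 0.07 did not pass (95% interval 0.06 to 0.37, adjusted p = 0.109). The ratio of grin1b to grin1a in FPKM was 0.927, 0.905 and 0.928 in the controls against 0.964, 0.955 and 0.988 in the morpholino libraries.

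The gene grin2cb encodes a subunit of the type that is known from cerebellar granule cells in mammals (chromosome 12, 31909346 to 32014106, minus strand). It was a low gene, with 32, 32 and 41 counts in the controls against 80, 68 and 76 in the morpholino libraries, or 2.21, 1.93 and 2.43 against 4.42, 3.54 and 4.79 CPM. All morpholino libraries were above all controls, by 0.95 ± 0.22 on the log2 scale (1.93-fold, 95% interval 0.47 to 1.43, adjusted p = 0.0270). Leaving out any library except morpholino library 2 ended the call (adjusted p between 0.0600 and 0.105), and so did DESeq2 (0.0522). The gene has 2 rows in the table, and the rise was carried by grin2cb_1, from 1.33 ± 0.0900 to 3.70 ± 0.538 CPM, while the row with coordinates stood at 0.860 ± 0.224 and 0.556 ± 0.174 CPM.

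The remaining 10 NMDA genes did not pass. Levels of the grin2 genes, which set how long the channel stays open and how strongly magnesium blocks it, were far below those of grin1, with 8.55 ± 0.229 times as much grin1 as grin2 FPKM in the controls and 9.44 ± 0.837 times in the morpholino libraries. The most abundant of them in FPKM, grin2aa, differed by 0.14 ± 0.08 on the log2 scale (27.1 ± 0.446 against 30.0 ± 0.980 CPM, adjusted p = 0.308). The log2 fold changes of grin2bb and grin2ba were 0.07 ± 0.09 and -0.01 ± 0.13. For grin2ba the 95% interval of -0.28 to 0.27 bounds the difference in either direction.

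**Figure D3:**
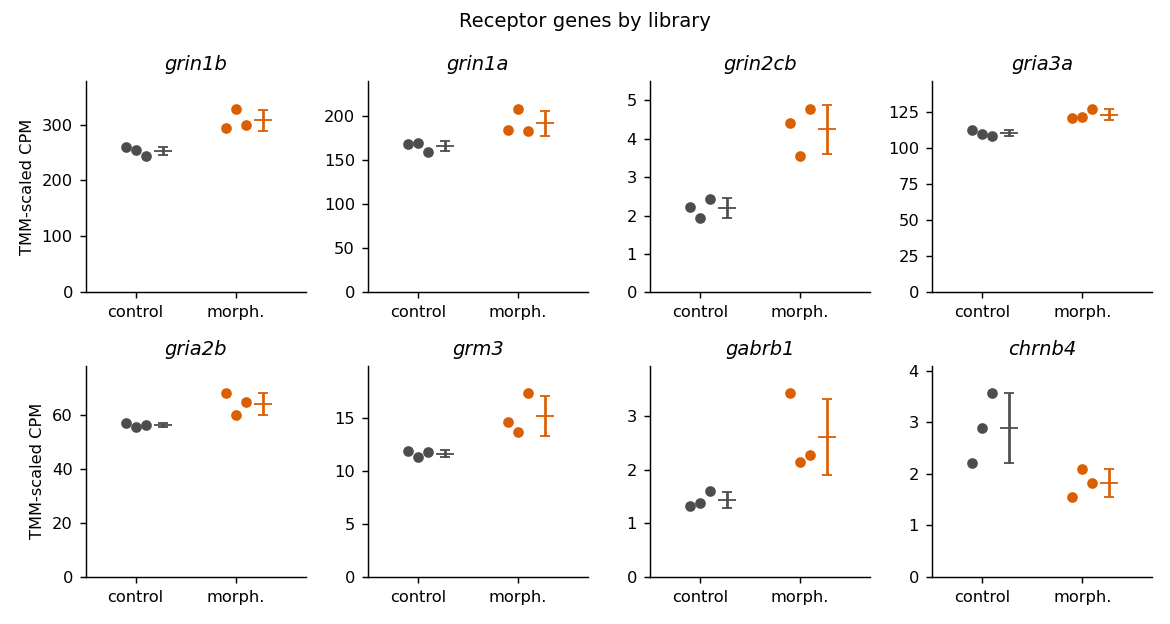
TMM-scaled CPM of 8 receptor genes, with 1 point per library and the mean ± SD (n = 3) beside each group, on axes that start at 0. All 8 belong to the 20 higher and 1 lower of the 101 tested members whose groups do not overlap. The lack of overlap in every panel therefore follows from the choice of genes. Of these 8, chrnb4 is the only one lower in the morpholino libraries, and only grin1b and grin2cb passed the test.

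None of the 8 AMPA receptor genes passed. The most abundant in CPM was gria3a, at 112, 110 and 108 CPM in the controls against 121, 121 and 127 CPM in the morpholino libraries. These do not overlap, yet the difference of 0.16 ± 0.06 on the log2 scale did not pass (adjusted p = 0.142). The gene gria2b encodes the subunit type whose edited form keeps calcium out of the channel. It was lower than gria3a in CPM, at 56.9, 55.3 and 56.1 against 68.0, 59.8 and 64.7 CPM, with a similar log2 fold change (0.19 ± 0.07, adjusted p = 0.137). The low gene gria1b stood at 2.81 ± 1.00 and 5.08 ± 1.45 CPM (0.85 ± 0.29, adjusted p = 0.119), which passed with the replicate number as a block (0.0340). gria4a did not move in either direction beyond its error (-0.03 ± 0.09, 95% interval -0.23 to 0.18). Its span overlaps alp3, wu:fb16f03 and fam131ab on the same strand, with 1985, 1823 and 354 counts. They were at 0.48, -0.63 and 0.06 on the log2 scale, and whether their reads were kept apart from those of gria4a is not known. Of the summed AMPA FPKM, gria2b took 33.9 ± 1.54% and 33.4 ± 2.14% and gria3a 27.4 ± 1.3% and 26.5 ± 1.96%. The share of gria2a was 5.34 ± 3.14% and 9.97 ± 3.91%, and that of gria1b 1.18 ± 0.326% and 1.73 ± 0.441%, with overlap between the groups in both. The share of gria4a was 13.9%, 14.3% and 15.8% in controls and 13.4%, 12.8% and 11.02% in morpholino larvae, without overlap. No test was made on these shares.

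Kainate and metabotropic glutamate genes gave no call. Both copies of grik1, a kainate channel subunit, were higher in every morpholino library than in every control. Levels of grik1a were 9.76, 7.90 and 9.15 against 10.4, 13.5 and 11.8 CPM (0.42 ± 0.14, adjusted p = 0.111), and those of grik1b were 14.9, 16.5 and 13.0 against 19.1, 21.3 and 16.7 CPM (0.36 ± 0.12, adjusted p = 0.114). The kainate gene with the highest FPKM in the controls, grik2, did not differ beyond its error (0.04 ± 0.09). Of 11 metabotropic genes tested, grm3, an inhibitory receptor found on nerve terminals and glia, had the smallest p, with 11.9, 11.3 and 11.8 against 14.6, 13.7 and 17.3 CPM (0.38 ± 0.12, adjusted p = 0.0851). The gene grm4, also coupled to inhibition of release, had the lowest log2 fold change of the family, at -0.23 ± 0.13 (adjusted p = 0.329). grm1a and grm7 were at 0.00 ± 0.10 and 0.07 ± 0.15, and the retinal bipolar cell receptor genes grm6a and grm6b, chosen after their values were seen, at 0.06 ± 0.19 and 0.25 ± 0.17.

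The inhibitory receptors gave no call among the 17 GABA-A and 6 glycine receptor genes described here. The GABA-A channel is built of alpha, beta and a further kind of subunit, and the delta subunit gene gabrd, which belongs to receptors outside the synapse, took the largest share of its FPKM in both groups (21.0 ± 0.446% and 21.2 ± 0.942%). Its level was 55.9, 49.7 and 49.4 against 55.0, 56.2 and 55.9 CPM (0.11 ± 0.07, adjusted p = 0.434). The beta gene gabrb2a was at 0.17 ± 0.14 on the log2 scale. The smallest p of the family belonged to the beta gene gabrb1, at 1.31, 1.39 and 1.6 against 3.43, 2.14 and 2.27 CPM (0.86 ± 0.28, adjusted p = 0.100). These groups did not overlap, on 69 control and 139 morpholino counts in all. The alpha gene gabra6b was at 0.41 ± 0.20 (adjusted p = 0.258).

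Glycine receptors carry inhibition in the spinal cord and hindbrain. The alpha genes glra3 and glra4a were at 0.20 ± 0.12 and -0.17 ± 0.18 on the log2 scale, and the beta gene glrba, which anchors the receptor to gephyrin, at 0.20 ± 0.19. The other beta gene, glrbb, could not be compared. It held 13, 15 and 627 counts in the controls against 200, 164 and 460 in the morpholino libraries (0.29 ± 1.59, 95% interval -4.04 to 4.63). The control libraries thus differed 41.4-fold among themselves in CPM. gabrp, the pi subunit gene, was set apart in the same control library but in the opposite direction, at 116, 104 and 3 counts in the controls against 70, 67 and 109 in the morpholino libraries (-0.02 ± 1.12), a 45.1-fold range among controls. Of all genes with a control mean of at least 1 CPM, 170 of 20652 (0.823%) ranged 10-fold or more among the controls, and these were the only 2 of 95 members to do so. gria2a ranged 3.05-fold among the controls, at 266, 100 and 123 counts beside 389, 256 and 469 (1.03 ± 0.58, adjusted p = 0.411).

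**Figure D4:**
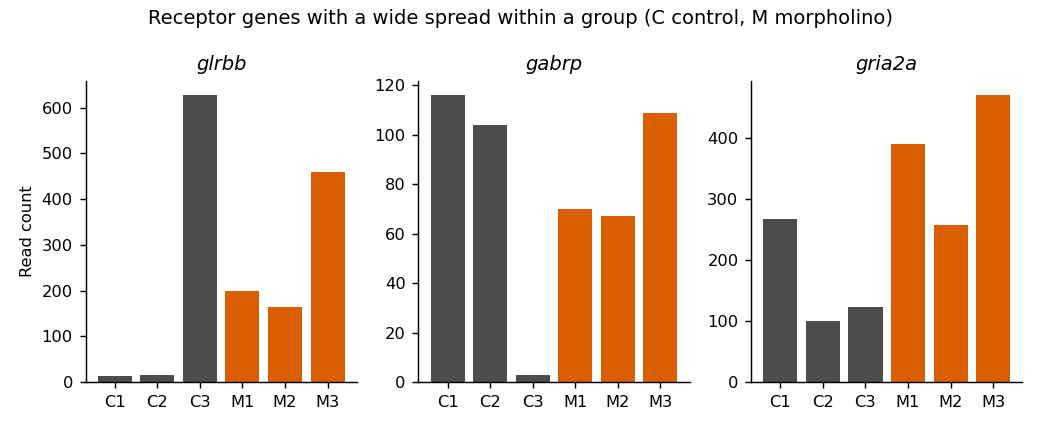
Read counts per library of glrbb, gabrp and gria2a, with controls C1 to C3 in grey and morpholino libraries M1 to M3 in orange. glrbb is near 0 in C1 and C2 and at 627 counts in C3, where gabrp is at 3.

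No gene of the receptor at the neuromuscular junction passed the test. It holds 2 alpha subunits, a beta, a delta and either gamma, in embryonic muscle of mammals, or epsilon, in adult muscle. The alpha gene chrna1 was at 79.5, 77.5 and 79.3 CPM in the controls against 81.2, 87.9 and 78.6 CPM in the morpholino libraries. The groups overlap, and the log2 fold change was 0.07 ± 0.07 with a 95% interval of -0.08 to 0.21. The delta gene chrnd was at 33.8 ± 1.12 and 33.5 ± 0.881 CPM (-0.01 ± 0.07, 95% interval -0.17 to 0.15). The epsilon gene chrne was at -0.09 ± 0.15 and the gamma gene chrng at -0.21 ± 0.14 (adjusted p = 0.780 and 0.419). The ratio of epsilon to gamma in FPKM was 2.12, 3.53 and 2.23 in the controls against 2.68, 3.26 and 2.51 in the morpholino libraries, which overlap. The low beta-type gene chrnb1l stood at 0.882 ± 0.463 and 1.48 ± 0.484 CPM (0.75 ± 0.44).

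Of 16 neuronal nicotinic genes tested none passed. The alpha gene chrna8 had the smallest p, at 3.46, 3.07 and 4.39 against 5.36, 5.73 and 5.10 CPM (0.57 ± 0.19, adjusted p = 0.109). Of its 3 rows, the one with coordinates held 7, 6 and 47 counts against 34, 1 and 0. The row chrna8_2 held 43, 42 and 26 against 62, 97 and 71. The beta gene chrnb3a, with the highest FPKM of the family, stood at 13.9, 13.8 and 13.7 against 15.1, 17.6 and 15.9 CPM (0.23 ± 0.10, adjusted p = 0.222). Its row with coordinates was at -0.19 ± 0.29 and its row chrnb3a_1 at 0.32 ± 0.11. The beta gene chrnb4, known from autonomic ganglia and the habenula, was the only member whose morpholino libraries all lay below the controls. Its counts were 32, 48 and 60 against 28, 40 and 29, or 2.21, 2.89 and 3.56 against 1.55, 2.08 and 1.83 CPM (-0.67 ± 0.26, adjusted p = 0.164). It overlaps ube2q1 on the other strand, a gene with 3820 counts that was at -0.01 on the log2 scale. chrnb2 and chrna5 were at -0.01 ± 0.10 and 0.11 ± 0.14. In mammals the receptor through which efferent nerves inhibit hair cells is built of the subunits for which chrna9a and chrna10a are named. Both genes were chosen here after their values were seen because the title of the series concerns deafness. They stood at 0.30 ± 0.35 and -0.06 ± 0.22 (1.39 ± 0.515 against 1.73 ± 0.419 CPM, and 3.27 ± 0.630 against 3.14 ± 0.383 CPM), and at these levels a difference could not be resolved. The row of chrna9a with coordinates held 4, 7 and 21 counts against 14, 4 and 5. Its row chrna9a_1 held 8, 18 and 10 against 26, 24 and 19.

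Serotonin receptors were the lowest of the transmitter groups, at 16.9 ± 1.06 and 18.1 ± 0.920 summed FPKM, and none of the 15 tested passed. The gene htr1aa, which encodes an inhibitory receptor also found on serotonin neurons themselves, was the most abundant in FPKM. Its level was 7.40, 8.50 and 7.60 against 9.12, 9.64 and 9.26 CPM, without overlap (0.25 ± 0.13, adjusted p = 0.292). htr5ab was at 0.50 ± 0.23 (adjusted p = 0.242), htr1b at 0.00 ± 0.24 and htr3a at -0.17 ± 0.18. Of 10 genes listed as serotonin neuron markers none was called higher and 1 lower. This was the transcription factor gene gata2a (-0.40 ± 0.11, adjusted p = 0.0496), a call lost when any library was left out. Whether its reads in whole larvae came from such neurons was not tested. The gata2a call was also lost in DESeq2, with either other filter, with the replicate block and without robust estimation. The median of that list was -0.04, with 8 below and 2 above 0. Of the 21 serotonin receptor genes, 6 were too low to test, the most of any transmitter.

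For some members a row of the table was called while the sum of their rows was not. Rows with a numeric suffix have no coordinates and were treated as added copies of a gene on the strength of their names; 38 members had such rows. In the rows as deposited, 3.77% of 24652 tested rows were called higher and 4.54% lower. Of the 164 rows of members, tested or not, 5 were called higher and 2 lower. How many member rows were tested is not given here, so no share is set beside that of all rows. The counts of member rows called are not read as a trait of the members. The called rows belonged to 5 members, and in 3 of them (chrne, grm2b and grin2ab) the sum was not called. The row chrne (chromosome 5, 38440099 to 38451115) went from 74, 72 and 99 counts to 210, 253 and 167 (1.2 ± 0.16, adjusted p = 0.00209), and chrne_1 from 242, 480 and 372 to 231, 304 and 226 (-0.66 ± 0.19, adjusted p = 0.0834). The row grm2b fell by 1.3 ± 0.26 (adjusted p = 0.0228) and grm2b_1 rose by 0.59 ± 0.13 (0.0207), with a sum of -0.12 ± 0.12. The row grin2ab rose by 1.5 ± 0.21 (adjusted p = 0.00262) and grin2ab_1 fell by 1.16 ± 0.23 (0.0132), with a sum of 0.27 ± 0.17. In each of these pairs the log2 fold changes of the rows had opposite signs. The 3 genes were chosen for a called row with a sum that was not called, so this largely follows from the choice. grin1b held nearly all its reads in 1 row, with 3741, 4220 and 4109 of its 3744, 4222 and 4113 control counts there, so its call does not turn on the split.

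**Figure D5:**
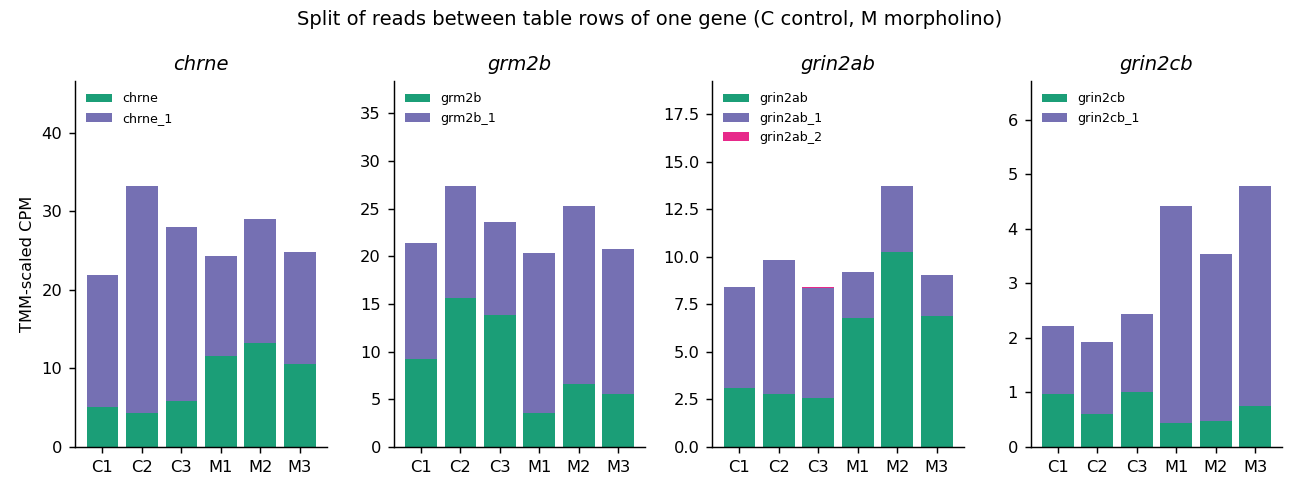
TMM-scaled CPM of the table rows of chrne, grm2b, grin2ab and grin2cb, stacked per library (C1 to C3 controls, M1 to M3 morpholino). In the first 3 genes the share of each row shifts between the groups while the height of the stack overlaps. These 3 were chosen for a called row with a sum that was not called, so the pattern largely follows from the choice. In grin2cb the stack is higher in all morpholino libraries, through grin2cb_1.

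Genes that work beside these receptors were read from lists, and gave few calls. Of 49 tested genes for scaffolds and auxiliary subunits of excitatory synapses none was called, with a median log2 fold change of 0.07; the smallest p-values were those of dlgap4a, a postsynaptic scaffold (-0.42 ± 0.12, adjusted p = 0.0716), and syngap1b, a synaptic Ras regulator (0.21 ± 0.07, adjusted p = 0.125). Of 18 genes for inhibitory synapses none was called, with lhfpl4b, an auxiliary protein of GABA-A receptors, at 0.45 ± 0.14 (adjusted p = 0.0810) and gabarapl2 at 0.16 ± 0.07. The shares of all genes called, 2.88% higher and 3.31% lower, are the background for these counts.

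Among 20 genes listed for the neuromuscular junction, 2 fell and 1 rose. agrn, whose product agrin is released by motor nerves to cluster the muscle receptor, fell from 69.8 ± 5.21 to 52.6 ± 3.15 CPM (-0.41 ± 0.08, adjusted p = 0.0129), which did not hold when control library 2, control library 3 or morpholino library 3 was left out, nor for its plain row alone (-0.24, adjusted p = 0.300). lamb2, a laminin of the synaptic basal lamina, fell from 138 ± 5.65 to 109 ± 1.53 CPM (-0.34 ± 0.06, adjusted p = 0.00926), and this held in all but the fit that left out control library 2. The gene that rose, crebl2, a leucine zipper gene, was listed by mistake and is no structural part of the junction. It rose by 0.35 ± 0.08 (adjusted p = 0.0328), but passed in none of the 6 fits that left out a library. Of 25 muscle markers 2 fell and none rose, tnnt3a, a troponin (-0.53 ± 0.06), and atp2a1, the calcium pump of muscle (-0.30 ± 0.07), with summed levels of 78132 to 85178 CPM among controls and 77186 to 78203 CPM in the morpholino libraries; their part in the junction values was not tested.

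Of 22 genes for making and breaking down transmitters 1 rose, mao, which encodes monoamine oxidase (126 ± 10.1 to 156 ± 4.17 CPM, 0.31 ± 0.07, adjusted p = 0.0267), a result that passed only when the library left out was control 1 or morpholino 2. Among 45 tested receptor genes outside the member rule (muscarinic, dopamine, adrenergic, histamine, purine, GABA-B and delta glutamate), 2 rose and none fell, with a median of 0.18 and 36 above 0 (80.0%, beside 51.4% of all genes). They were chrm5a, a muscarinic receptor (2.69 ± 0.657 to 5.00 ± 0.632 CPM, 0.89 ± 0.23, adjusted p = 0.0411), and adra2b, an adrenergic receptor (4.75 ± 0.470 to 7.42 ± 0.638 CPM, 0.64 ± 0.16, adjusted p = 0.0375), and both calls were lost when any library was left out and in DESeq2.

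No neuron, glia or cerebellum marker was called higher. Of 26 neuron markers 2 fell, stmn2b, a growth cone protein gene (-0.62 ± 0.13, adjusted p = 0.0220), and inaa, a neurofilament gene (-0.39 ± 0.08, adjusted p = 0.0176), with a median of 0.03 over the list. Of 14 glia markers 1 fell, fabp7a, a radial glia lipid carrier (-0.36 ± 0.06, adjusted p = 0.00590). The median of the glia list was -0.13, with 10 below and 4 above 0. Its summed level was 1120 to 1177 CPM among controls and 1006 to 1062 CPM in the morpholino libraries, without overlap and not tested. Of 12 cerebellum markers none was called, with neurod1 and zic1 at -0.25 ± 0.07 and -0.29 ± 0.10 (adjusted p = 0.0718 and 0.111), and their summed level was 298 to 307 CPM among controls and 271 to 303 CPM in the morpholino libraries; the part of this in the grin2cb values was not tested. Of 23 retina and photoreceptor markers 4 fell and none rose: opn1mw1, opn1lw2, opn1sw2 and gnat1, cone opsins and a rod transducin, by 0.59, 0.34, 0.39 and 0.43 on the log2 scale. The median of the retina list was -0.14, with 17 below and 6 above 0. Of the marker genes that fell, fabp7a, opn1mw1 and tnnt3a passed whichever library was left out; stmn2b, inaa and opn1lw2 each failed in 3 of the 6 such fits, and opn1sw2, gnat1 and atp2a1 in 4.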

How the data were processed

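Poly-A RNA of 3 control and 3 morpholino libraries was sequenced. HISAT2, StringTie 1.3.1, RSEM and the GRCz11 build are named in the submitters' processing notes; their roles are not given in the sources used here. The read counts deposited by the authors are whole numbers per row of the table. The FPKM deposited by the authors are scaled by row length and library reads, and the TPM deposited by the authors sum to the same total in each library and were not used. Counts of rows that share a symbol apart from a trailing number were summed (53709 rows, 37685 symbols). edgeR 4.0.16 in R 4.3.3 kept symbols with filterByExpr (minimum count 10, minimum total 15), scaled libraries with TMM and compared the groups with a robust quasi-likelihood test without covariates. P-values were adjusted by Benjamini-Hochberg over all 22247 symbols, and a symbol was called at an adjusted p under 0.05. Standard errors were calculated as the absolute log2 fold change divided by the square root of the quasi-likelihood F statistic. The 95% intervals were built from these standard errors. The fit was also run on simulated counts with known fold changes. That run checked fold changes, p-values and calls, but not the standard errors or the intervals. Fold changes are morpholino over control, and levels are mean ± SD over 3 libraries. Alternatives were rows as deposited, RLE scaling, DESeq2 1.42.0, other filters, a replicate block, no robust estimation, and leaving out each library.

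Members and lists were chosen with earlier results of these data known. Named are members that passed, the 3 highest by FPKM and the 2 smallest p per family, members with a row called but not the sum, and from each list up to 4 called genes, or 2 where none was. List symbols were matched directly or through synonyms in a RefSeq table of GRCz12tu, used for names only; chromosomes and positions are those of the deposited table. Some members that this rule names, and 1 family of 4 genes, are not reported here or drawn; they stay in the counts and sums over all members.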

Additional observations from a re-analysis of the deposited data

How the results depend on the processing

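The number of receptor genes called higher was 2, and 0 to 1 when 1 library was left out, 1 in DESeq2 and 1 without robust estimation; RLE scaling, no filter, at least 50 counts and the replicate block each gave 2, and rows as deposited gave 3 when each gene stood for its row without a suffix, or 5 over all member rows. The number called lower was 0 except in the rows as deposited, where 1 row without a suffix fell, or 2 over all member rows. Over all symbols tested, 641 genes were higher and 737 lower, with 272 to 477 and 307 to 593 when a library was left out, and 1119 lower among rows as deposited. Row by row, grin2cb turned to -0.63 and chrne to 1.2, because the plain row there stands for part of the reads of the gene. The direction of grin1b held under every alternative run. The labels do not say whether same-numbered libraries are paired. The correlations of deviations between same-numbered libraries were -0.0378, 0.0577 and 0.0156, and those between differently numbered libraries ranged from -0.0871 to 0.0766. With 3 libraries per group such values show no pairing but cannot exclude one. With the replicate block 661 genes were called higher and 701 lower; among members grin1b lost its call and gria1b gained one. Low members limit the precision: 37 genes averaged under 1 FPKM. For the 16 genes called in the lists of associated genes and markers the same alternatives were added after seeing the data. None of them reversed, 3 kept their call whichever library was left out and 4 lost it in every such fit. Apart from gata2a, described above, the calls of mao, gnat1, opn1sw2, chrm5a and adra2b were also lost without robust estimation. That of atp2a1 was lost with the replicate block, that of agrn in the rows as deposited, and those of chrm5a and adra2b in DESeq2.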
